A study of Mus musculus with 10 samples.

Results

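The 9 genes described here serve the breakdown of branched-chain amino acids (BCAA) and the use of ketone bodies: Bcat2, Bckdha, Bckdhb, Dbt, Bckdk, Ppm1k, Hibadh, Bdh1 and Oxct1. They were listed by name and found through the Ensembl identifiers of the deposited count tables, matched to symbols by GENCODE. All 9 were among the 15454 genes with enough counts for a test, of 56748 genes in the tables. RNA was sequenced from whole hearts, atria and ventricles together, of wild-type male C57BL/6 mice bought at 8 weeks of age, 1 library per heart. The training group (n = 5) had undergone 8 weeks of forced treadmill running, on 5 days per week for 120 min per day at 15 m/min, after an acclimatization week. The sedentary group (n = 5) did not train and was of the same age. The paper describes a PET/CT scan under isoflurane for each animal, trained or sedentary, before hearts were harvested. The comparison asks which of these transcripts differed in the heart after forced endurance training.

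Leucine, isoleucine and valine first lose their amino group to the mitochondrial transaminase made from Bcat2. The branched-chain keto acid dehydrogenase (BCKDH) complex then removes carbon dioxide from the keto acids, the committed step, and is switched off by the kinase from Bckdk and on by the phosphatase from Ppm1k. Ketone bodies arrive in the heart from the liver, and Bdh1 and Oxct1 encode the mitochondrial enzymes that turn them into acetoacetate and acetoacetyl-CoA for oxidation. The heart is a major user of ketone bodies and oxidizes BCAA to a small extent.

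Libraries held between 29461697 and 35945417 counts on genes in the training group and between 35196993 and 39431030 in the sedentary group, and the totals of the groups differed (p = 0.0238, exact two-sided permutation test, n = 5 per group). Values are therefore given as CPM, the counts of a gene per 1000000 counts of an effective library size that TMM corrects for depth and composition. Fold changes compare training with sedentary hearts on the log2 scale and come from edgeR's quasi-likelihood test, with a false discovery rate (FDR) by Benjamini-Hochberg over all 15454 genes and a threshold of 0.1. Of these genes, 7.01% were called, 2.75% higher and 4.26% lower after training. With scaling by library totals alone, 1029 of 1368 called genes were higher, compared to 425 of 1084 with TMM. The counts behind a library's value ranged from 1388 (Bckdhb) to 57452 (Oxct1), so that counting error was at most 2.68% of a value (Bckdhb), and for each of the 9 genes it was less than that gene's own spread between hearts of either group.

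Both ketone body enzyme genes were lower in the training hearts, whereas none of the 7 BCAA genes passed the test. Bdh1 changed by −35.5% (95% confidence interval −48.7% to −19.0%) and Oxct1 by −10.8% (−16.0% to −5.27%), with 5 hearts per group. The counts were 0 higher, 2 lower and 7 not called, set against 2.75% and 4.26% of all genes. The 9 genes and the lists below were chosen with earlier results of these data known, so such counts are a description. The median log2 fold change of the 9 genes was −0.05, with 6 below 0 and 3 above, compared to a median of 0.00026 over all genes tested. Without adjustment, 3 of the 9 had p below 0.05, as did 20.0% of all genes. In 1 of them, Oxct1, the training and sedentary values did not overlap. All genes tested showed no overlap in 5.06% of cases and lay wholly below in the training group in 2.94%. As bulk RNA was measured, fewer cells of a type and less RNA per cell cannot be told apart.

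**Figure D1:**
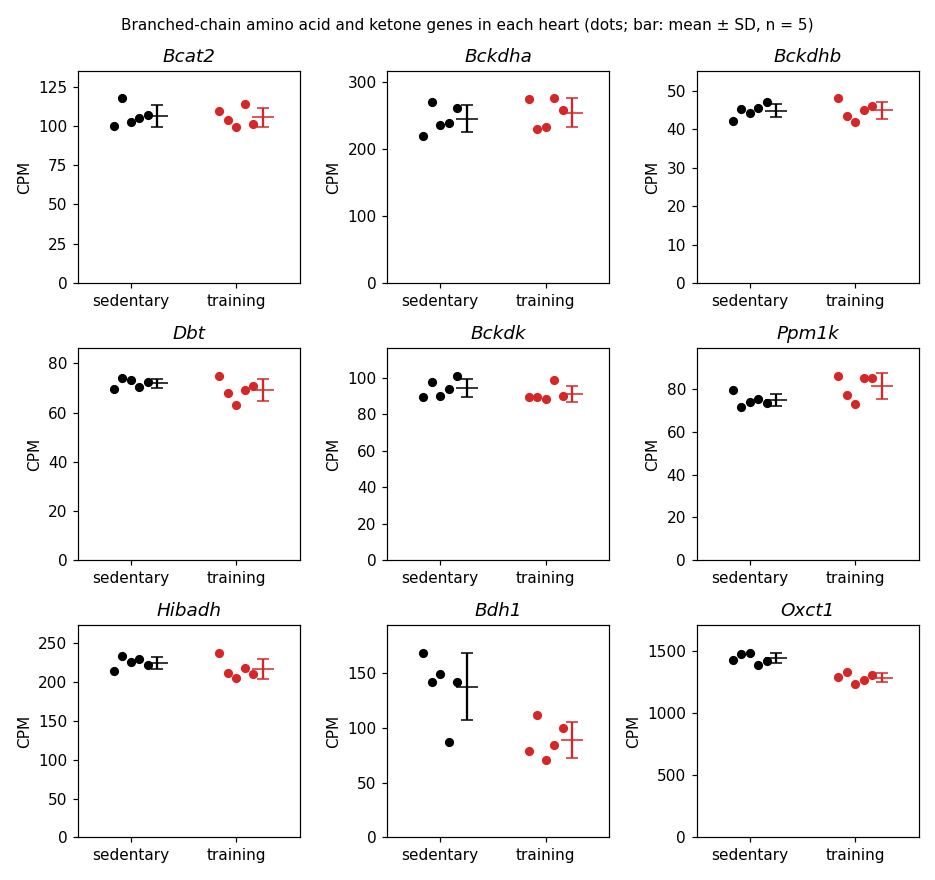
CPM (TMM-scaled, linear axis from 0) of the 9 genes in each of the 5 sedentary (black) and 5 training (red) hearts, 1 panel per gene; dots are hearts, drawn in the order of their numbers, and the cross with bar is the mean ± SD. Only Oxct1 shows training hearts (1235 to 1329.6 CPM) all below sedentary hearts (1389 to 1484 CPM); in Bdh1, sedentary heart 4 at 86.9 CPM sits among the training hearts.

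Bcat2 (ENSMUSG00000030826; GRCm39 chromosome 7, 45219577 to 45239152, plus strand) encodes the mitochondrial branched-chain aminotransferase. It was measured at 99.8, 118, 103, 105 and 107.01 CPM in sedentary hearts 1 to 5 and at 109, 104, 99.6, 114 and 101 CPM in training hearts 1 to 5. The groups overlapped over nearly their whole range. For Bcat2 the log2 fold change was −0.01 (standard error 0.052, FDR 0.941 from edgeR), and the 95% confidence interval of the change in level ran from −8.05% to 7.29%.

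The BCKDH complex is built from E1 alpha and beta chains (Bckdha, Bckdhb), which decarboxylate the keto acid, and the E2 core (Dbt), which passes the acyl group to coenzyme A. No gene of these 3 passed the test. Bckdha (ENSMUSG00000060376; chromosome 7, 25326168 to 25358420, minus strand) was at 219.6, 270.1, 236, 239 and 261 CPM in the sedentary hearts and at 274, 230.0, 233, 275 and 259 CPM in the training hearts. Each group held both low and high hearts, and the 2 highest values of all belonged to training hearts 1 and 4. Bckdha had a log2 difference of 0.05 (standard error 0.067, FDR 0.715 from edgeR), with an interval from −6.08% to 14.5%. Bckdhb (ENSMUSG00000032263; chromosome 9, 83807130 to 84011081, plus strand) was at 42.3, 45.2, 44.3, 45.4 and 47.1 CPM in the sedentary and at 48.0, 43.5, 42.0, 44.9 and 46.0 CPM in the training hearts. The means were equal at 44.9 CPM (SD 1.76 sedentary, 2.31 training), and the interval ran from −6.498% to 7.09%. Dbt (ENSMUSG00000000340; chromosome 3, 116306686 to 116343633, plus strand) was at 69.8, 74.2, 73.1, 70.5 and 72.4 CPM in the sedentary and at 75.0, 68.1, 63.0, 69.0 and 70.9 CPM in the training hearts. Training hearts gave both the lowest and the highest Dbt value, with a coefficient of variation of 6.29% against 2.55% in the sedentary hearts. The difference was −0.06 on the log2 scale (standard error 0.046, FDR 0.535 from edgeR), with an interval from −10.2% to 2.91%.

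The regulators of the complex are its kinase, which phosphorylates E1 alpha and inactivates it, and the phosphatase PP2Cm, which reverses this. Bckdk (ENSMUSG00000030802; chromosome 7, 127502939 to 127510162, plus strand) was at 89.4, 97.4, 89.9, 93.8 and 101 CPM in the sedentary hearts and at 89.5, 89.4, 88.3, 98.5 and 89.7 CPM in the training hearts. Of the training hearts, 4 lay between 88.3 and 89.7 CPM while heart 4 stood above them, inside the sedentary range. The log2 difference for Bckdk was −0.05 (standard error 0.046, FDR 0.595 from edgeR), with an interval from −9.80% to 3.41%. Ppm1k (ENSMUSG00000037826; chromosome 6, 57483475 to 57512492, minus strand) encodes PP2Cm and was at 79.4, 71.7, 73.7, 75.2 and 73.6 CPM in the sedentary hearts. In the training hearts it was at 86.2, 77.1, 72.9, 85.2 and 85.0 CPM. Training hearts 1, 4 and 5 exceeded every sedentary heart, and hearts 2 and 3 did not. The mean was 81.3 ± 5.94 CPM (SD, n = 5) compared to 74.7 ± 2.88 CPM, a log2 difference of 0.12 (standard error 0.052) that did not pass the threshold (FDR 0.210 from edgeR, unadjusted p = 0.0344). With library totals in place of TMM, the log2 fold change of Ppm1k was 0.17 and its FDR 0.0886, past the threshold; no other setting passed, with FDR of Ppm1k from 0.120 to 0.677.

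As kinase and phosphatase act on the same subunit, their counts were also set against each other within each heart, as a description without a test. The ratio of Bckdk to Ppm1k CPM was 1.13, 1.36, 1.22, 1.25 and 1.37 in the sedentary hearts and 1.04, 1.16, 1.21, 1.16 and 1.06 in the training hearts. The ranges overlapped, with means of 1.26 ± 0.102 and 1.12 ± 0.0740. The ratio of Bckdk to Bckdha, the kinase to its substrate, was 0.386 ± 0.0171 in the sedentary and 0.360 ± 0.0250 in the training hearts, again with overlapping ranges. These ratios do not depend on the scaling of a library, since both genes of a heart share it.

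Hibadh (ENSMUSG00000029776; chromosome 6, 52430355 to 52617400, minus strand) encodes 3-hydroxyisobutyrate dehydrogenase, an enzyme of the valine branch that oxidizes a free intermediate able to leave the mitochondrion. It was at 214, 233, 226, 229.5 and 221 CPM in the sedentary hearts and at 237, 211, 205, 218 and 211 CPM in the training hearts. In the training group 3 hearts lay below every sedentary heart and heart 1 lay above all of them. Its log2 difference was −0.05 (standard error 0.045, FDR 0.555 from edgeR), with an interval from −9.93% to 3.02%.

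Bdh1 (ENSMUSG00000046598; chromosome 16, 31241087 to 31277725, plus strand) encodes the mitochondrial 3-hydroxybutyrate dehydrogenase, which oxidizes the main circulating ketone body to acetoacetate. It was at 168, 142, 149, 86.9 and 141 CPM in sedentary hearts 1 to 5 and at 78.3, 111, 70.5, 83.8 and 99.4 CPM in training hearts 1 to 5. Of the sedentary hearts, 4 lay above every training heart, whereas sedentary heart 4 lay among them. Means were 137 ± 30.2 CPM (sedentary) and 88.6 ± 16.4 CPM (training), a log2 difference of −0.63 (standard error 0.15, FDR 0.0410 from edgeR). This gene varied more between hearts of a group than the other 8 genes. Its coefficient of variation was 22.0% in the sedentary and 18.5% in the training hearts, and that of the others was at most 8.58%. Without sedentary heart 4 the log2 fold change of Bdh1 was −0.76 (FDR 0.00912 from edgeR), and without training heart 3, the lowest of all, it was −0.56 and just missed the threshold (FDR 0.1004).

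Oxct1 (ENSMUSG00000022186; chromosome 15, 4055638 to 4184828, plus strand) encodes succinyl-CoA:3-ketoacid CoA transferase (SCOT), which activates acetoacetate and is the enzyme that lets tissues outside the liver burn ketone bodies. It was at 1427, 1478, 1484, 1389 and 1420.4 CPM in the sedentary hearts and at 1291, 1329.6, 1235, 1262 and 1305 CPM in the training hearts. All training hearts lay below all sedentary hearts. Means were 1439.7 ± 40.3 CPM (sedentary) and 1284 ± 37.1 CPM (training), a log2 difference of −0.16 (standard error 0.040, FDR 0.0431 from edgeR). The spread within a group was small as well, with coefficients of variation of 2.80% and 2.89%. The call of Oxct1 was lost without training heart 3 (FDR 0.104), training heart 4 (FDR 0.108) or sedentary heart 3 (FDR 0.130), and with library totals in place of TMM (−0.11, FDR 0.133), all from edgeR. Within each heart, the ratio of Bdh1 to Oxct1 CPM was 0.0952 ± 0.0201 in the sedentary and 0.0688 ± 0.0110 in the training hearts, with sedentary heart 4 at 0.0626 within the training range of 0.0571 to 0.0836.

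**Figure D2:**
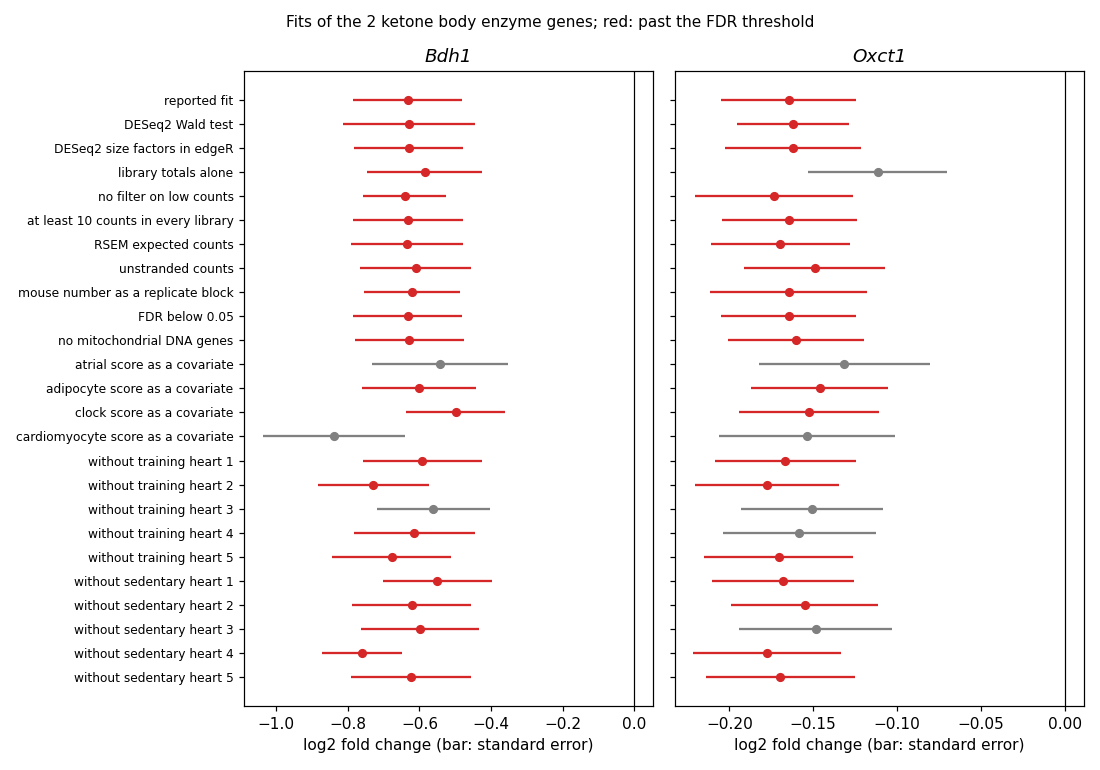
Log2 fold change between training and sedentary hearts (dot; below 0 means lower after training) with its standard error (bar) for Bdh1 (left) and Oxct1 (right) under the reported fit and each of 24 other settings, 1 line per setting; red marks fits past the FDR threshold and grey those that are not, and the 2 horizontal axes differ in scale. All estimates lie below 0, from −0.84 to −0.50 for Bdh1 and from −0.18 to −0.11 for Oxct1, and 21 and 18 of the 24 other settings pass, with FDR from 0.00238 to 0.301 and from 0.000149 to 0.353.

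Sequence before the RefSeq starts of both lower genes is printed because these 2 of the 9 passed the test. RefSeq promoter windows, from 250 bases before to 50 after a start, were at hand for 8 of the 9 genes (11 windows, not Dbt), and 10 of the 11 were placed on GRCm39 by a single exact match; the other, the second of Bckdhb, matched at 2 places. Shown is the longest part of each Bdh1 and Oxct1 window before its start that lies in no annotated exon. It is on the plus strand, with no letter in capitals because no searched motif lies in it. The first Bdh1 part lies before the annotated gene. The second Bdh1 part and the Oxct1 part lie inside the annotated span of their gene.
Bdh1, first start, chr16:31240865-31241086: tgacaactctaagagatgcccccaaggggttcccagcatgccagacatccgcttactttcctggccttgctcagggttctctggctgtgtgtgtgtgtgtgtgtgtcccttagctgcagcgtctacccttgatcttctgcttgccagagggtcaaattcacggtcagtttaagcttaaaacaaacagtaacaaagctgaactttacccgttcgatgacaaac
Bdh1, second start, chr16:31247321-31247399: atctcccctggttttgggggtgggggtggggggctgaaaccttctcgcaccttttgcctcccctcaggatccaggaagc
Oxct1, chr15:4055729-4055864: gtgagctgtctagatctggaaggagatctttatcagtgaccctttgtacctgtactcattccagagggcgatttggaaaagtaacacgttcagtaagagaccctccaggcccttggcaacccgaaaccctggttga

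These windows were searched on both strands for 6 short motifs, each match being a description and not a binding site. The E-box, with the letters CACGTG, was found in 0 of the 11 windows, and in 7.15% of all 32851 windows in the table. The D-box, spelled TTATGTAA, was in 0 and in 0.938% of all, and the ERR element, spelled TCAAGGTCA, in 0 and in 0.423% of all. The nuclear receptor half-site, whose 6 letters AGGTCA also end the ERR element, was found in 3 windows, those of Bckdhb, Ppm1k and Hibadh, and in 16.3% of all. For the GC box, with the letters GGGCGG, 4 windows matched, and 35.7% of all did. The TATA box, searched as TATAAA, was found in 1 window, that of Bckdk, and in 13.6% of all. In the full windows of the lower genes the single match was a GC box on the minus strand, 15 bases after the second Bdh1 start. No searched motif was in all 11 windows.

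Levels of different genes were compared per length, in the TPM computed from RSEM. Oxct1 was the most abundant of the 9 at 530.1 ± 39.1 TPM (SD, n = 10 hearts), above 99.1% of the genes tested. Next were the E1 alpha gene Bckdha at 142 ± 11.7 TPM and Hibadh at 132 ± 3.94 TPM, which did not separate: Bckdha was the higher of the pair in 7 of 10 hearts, 2 sedentary and 5 training. Bcat2 (71.9 ± 3.82 TPM), Bdh1 (69.2 ± 21.4 TPM) and Bckdk (57.1 ± 3.91 TPM) followed. The place of Bdh1 in this order differed between the groups, with means of 83.5 TPM in sedentary and 54.9 TPM in training hearts. It was below Bcat2 in 1 of 5 sedentary and 5 of 5 training hearts, and above Bckdk in 4 of 5 and 2 of 5. Bckdhb (38.0 ± 1.65 TPM), Dbt (23.2 ± 1.26 TPM) and Ppm1k (15.8 ± 1.52 TPM, the lowest) were each apart from their neighbours in all 10 hearts. The order was the same in CPM per kilobase of effective length. Within the BCKDH complex, Bckdha exceeded Bckdhb by a ratio of 3.62 ± 0.230 TPM in the sedentary and 3.86 ± 0.209 TPM in the training hearts, and the kinase gene Bckdk exceeded the phosphatase gene Ppm1k by 3.91 ± 0.507 and 3.38 ± 0.293, also in TPM.

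**Figure D3:**
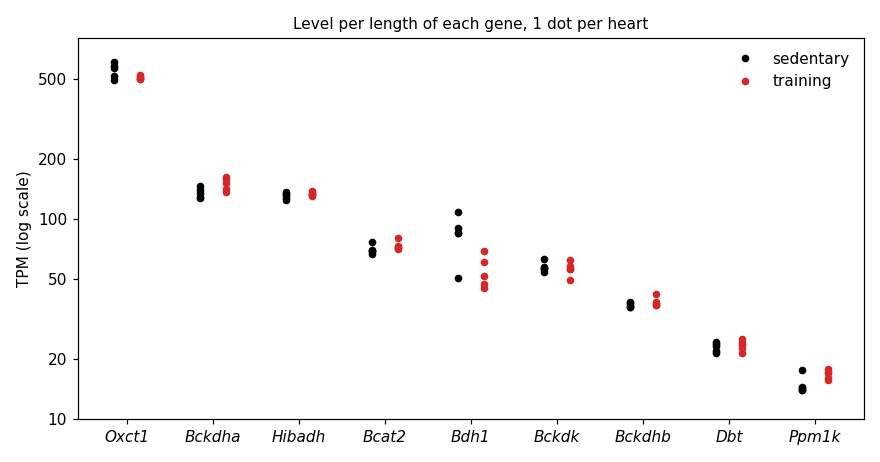
Level per length of the 9 genes in TPM (log axis), 1 dot per heart, sedentary in black and training in red, ordered by mean over the 10 hearts. Oxct1 lies at 495 to 603 TPM, far above the others, and Ppm1k lies lowest at 14.0 to 17.8 TPM, while Bdh1 has the widest spread, from 45.0 to 108 TPM.

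TPM differ from the CPM used here in how reads are shared, in length and in scaling, and small differences did not keep their direction; the cause was not tested. Of the 9 genes, 6 had a higher and 3 a lower mean TPM in the training hearts, the reverse of the split in the TMM-scaled fit. Bdh1 and Oxct1 were lower on both scales. For Bdh1 the TPM were 108, 84.6, 89.6, 50.9 and 84.6 in the sedentary and 47.5, 69.0, 45.0, 52.2 and 60.8 in the training hearts. For Oxct1 they were 581, 567, 603, 495 and 516 in the sedentary and 504, 523, 499, 497 and 517 in the training hearts, so that the groups, apart in CPM, overlapped in TPM through sedentary hearts 4 and 5. With RSEM expected counts in edgeR, which include TMM scaling, the log2 fold changes of Bdh1 and Oxct1 were −0.63 (FDR 0.0496) and −0.17 (FDR 0.0473).

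The other genes of these pathways comprised 36 hand-listed transporters, enzymes and a regulator, of which 33 were tested. Of those, 1 was higher, 3 were lower and 29 were not called, set against 2.75% of all genes called higher and 4.26% lower. The median log2 fold change was −0.04 with 23 below 0, compared to 49.9% below 0 of all genes tested. In 3 of the 33 the groups did not overlap in CPM, as in 5.06% of all genes tested. The same shares over all genes stand beside the counts of each list below. Agxt2, Oxct2a and Oxct2b, named here after their values were seen, had 0 counts in every library, which allows at most 0.0761 to 0.102 CPM (3 counts per library, counting error only). Oxct2a and Oxct2b are similar copies, and reads that match both would not be counted as unique; their TPM, in which RSEM shares such reads, were 0 as well.

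In the transport list 1 of 7 genes was lower and 0 were higher, with a median log2 fold change of −0.10. Slc7a8 encodes LAT2, a light chain that exchanges neutral amino acids across the plasma membrane. It was at 7.87, 7.88, 8.06, 8.08 and 8.88 CPM in the sedentary and at 5.92, 5.93, 7.39, 7.07 and 6.60 CPM in the training hearts, without overlap, a log2 difference of −0.31 (standard error 0.078, FDR 0.0473 from edgeR). In TPM the groups overlapped for Slc7a8, at 1.91 to 2.13 in the sedentary and 1.47 to 2.02 in the training hearts. The most abundant transport genes per length did not pass: Slc3a2, the heavy chain that LAT2 pairs with, averaged 46.7 ± 4.41 CPM in sedentary and 43.5 ± 4.21 CPM in training hearts (log2 fold change −0.10, FDR 0.481). Slc25a44, the mitochondrial BCAA carrier, averaged 24.1 ± 1.25 and 23.6 ± 1.29 CPM (−0.03, FDR 0.786). Slc43a2 (−0.15, FDR 0.336), Slc7a6 (−0.11, FDR 0.326) and Slc7a5 (0.12, FDR 0.585) were not called either.

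Among the enzymes of the BCAA branches, 1 of 18 tested genes was lower and 0 were higher, with a median log2 fold change of −0.03. Hibch encodes 3-hydroxyisobutyryl-CoA hydrolase, the step before Hibadh in valine breakdown. It was at 79.4, 79.3, 75.3, 73.3 and 72.0 CPM in the sedentary and at 74.3, 68.8, 61.4, 64.9 and 68.4 CPM in the training hearts. Training heart 1 lay inside the sedentary range and the other 4 below it. Hibch changed by −0.17 on the log2 scale (standard error 0.052, FDR 0.0947 from edgeR), close to the threshold, and it passed in 9 of 24 other settings (FDR 0.0443 to 0.555 over these), 2 of them among the 10 that left out 1 heart. Dld, the E3 subunit that BCKDH shares with pyruvate and oxoglutarate dehydrogenase, averaged 438 ± 32.8 CPM in sedentary and 408 ± 27.8 CPM in training hearts (−0.10, FDR 0.383). The other enzymes abundant per length were Acat1, a thiolase of isoleucine and of ketone body breakdown (−0.06, FDR 0.605), Echs1, a short-chain hydratase (0.02, FDR 0.835), Ivd, of the leucine branch (0.01, FDR 0.941), and Acadsb, of the isoleucine branch (−0.05, FDR 0.629). Klf15, a transcription factor known to activate BCAA genes in muscle and heart, averaged 66.3 ± 10.3 CPM in sedentary and 59.8 ± 6.49 CPM in training hearts (−0.15, FDR 0.443).

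In the ketone list 1 of 7 tested genes was higher and 1 was lower, both tied to monocarboxylate transport across the plasma membrane. Slc16a7 encodes MCT2, a transporter with high affinity for ketone bodies, lactate and pyruvate. It was at 9.99, 9.75, 9.74, 9.62 and 9.10 CPM in the sedentary and at 12.6, 11.3, 12.7, 12.2 and 13.4 CPM in the training hearts, all above the sedentary hearts. In TPM the groups were apart as well, at 2.94 to 3.20 in the sedentary and 3.63 to 4.60 in the training hearts. The log2 fold change of Slc16a7 was 0.37 (standard error 0.058, FDR 0.00871 from edgeR). Bsg encodes basigin, the chaperone that carries MCT1 and MCT4 to the cell surface. It was at 994, 1088, 1023, 1003 and 1019 CPM in the sedentary and at 938, 905, 818, 896 and 858 CPM in the training hearts, all below the sedentary hearts. In TPM the groups overlapped, at 839 to 932 in the sedentary and 783 to 847 in the training hearts. On the log2 scale Bsg changed by −0.22 (standard error 0.046, FDR 0.0274 from edgeR). Slc16a1 (MCT1) averaged 235 ± 22.3 CPM in sedentary and 222 ± 13.1 CPM in training hearts (−0.08, FDR 0.522). It was the more abundant of these transporters per length, at 54.5 ± 3.39 TPM in the training hearts compared to 4.24 ± 0.421 TPM for Slc16a7. Slc16a6, a ketone body exporter in liver, averaged 13.4 ± 1.77 CPM in sedentary and 11.6 ± 1.95 CPM in training hearts (−0.21, FDR 0.337).

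**Figure D4:**
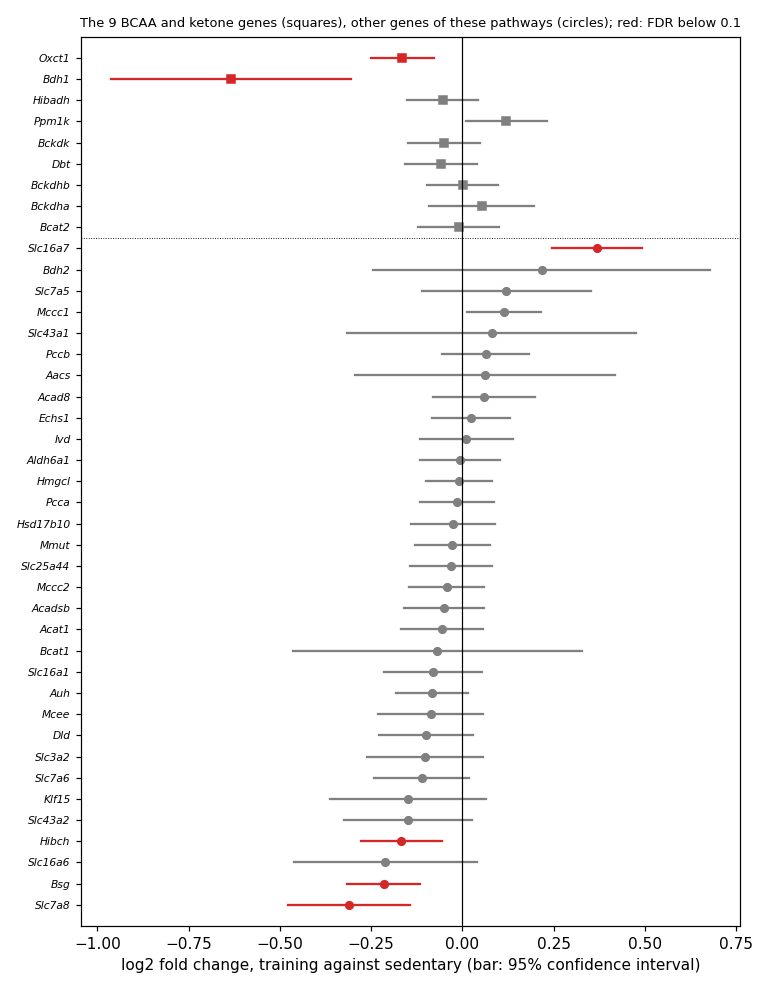
Log2 fold change between training and sedentary hearts (below 0 means lower after training) with its 95% confidence interval for the 9 genes (squares, above the dotted line) and other tested genes of these pathways (circles); red marks an FDR below 0.1. Bdh1 (−0.63) and Oxct1 (−0.16) are the red squares, Slc16a7 (0.37), Bsg (−0.22), Slc7a8 (−0.31) and Hibch (−0.17) the red circles, and the other intervals include 0 or did not pass after adjustment.

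Markers of the cells in a whole heart were set beside these changes. Summed cardiomyocyte markers (Myh6, Actc1, Tnnt2, Tnni3, Myl2, Ryr2, Pln, Mb) ranged from 65463 to 74614 CPM in sedentary and from 62263 to 67772 CPM in training hearts, none at 0. All 8 had log2 fold changes below 0, and 1 of them, Actc1, was lower past the threshold (−0.38, FDR 0.0220 from edgeR). Their mean log2 level differed by −0.13 between training and sedentary hearts (p = 0.0317, exact permutation test, adjusted p = 0.143 over 9 lists), so the list did not pass. The 8 atrial markers summed to 2916 to 7055 CPM in sedentary and 5262 to 7885 CPM in training hearts, with 3 higher (Sln, Dkk3 and Stard10) and a mean log2 difference of 0.62 (p = 0.0317, exact permutation test, adjusted p = 0.143). With either score as a covariate, Bdh1 and Oxct1 kept their sign but not their call. The estimates were −0.54 (FDR 0.301) and −0.13 (FDR 0.353) with the atrial score, and −0.84 (FDR 0.134) and −0.15 (FDR 0.312) with the cardiomyocyte score, all from edgeR. Over all genes, 89 and 73 were then called in place of 1084. Training heart 3, without which both calls were lost, had the highest atrial and the lowest cardiomyocyte score. Oxct1 also lost its call without training heart 4 (atrial score 0.37, cardiomyocyte score −0.07) or sedentary heart 3 (−0.18 and 0.05). Calls over all genes fell as well, from 1084 to 540 without training heart 3. They fell to 512 without training heart 4 and to 512 without sedentary heart 3. The part of tissue composition in the change of Bdh1 and Oxct1 was not tested.

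The remaining cell type lists had adjusted p from 0.357 upward in the same exact permutation test, and none of their summed levels separated the groups. Adipocyte markers summed to 909 to 1087 CPM in sedentary and 718 to 990.1 CPM in training hearts, with 2 of 8 lower and 0 higher. The 2 lower genes made up most of this sum: Fabp4 averaged 466 and 395 CPM and Plin4 453 and 385 CPM in sedentary and training hearts. The other 6 had log2 fold changes above 0 and were not called. The mean log2 level of the list differed by 0.51, opposite to the sum (adjusted p = 0.524, exact permutation test). Fibroblast markers (1181 to 1482 and 1326 to 1681 CPM, 1 of 7 higher), endothelial markers (963 to 1039 and 905 to 1007 CPM, 1 of 7 lower) and macrophage markers (342 to 456 and 331 to 420.2 CPM, 0 of 7 called) overlapped between the groups as well. Erythroid markers were at 60.3 to 141 and 39.1 to 98.8 CPM (0 of 5 called), and brown adipocyte markers at 37.4 to 50.2 and 35.1 to 54.7 CPM (2 of 5 tested, 0 called). Ucp1, Elovl3 and Zic1 did not pass the count filter and were not tested. Ucp1 ranged from 0 to 0.654 CPM in sedentary hearts (median 0.0266) and from 0 to 6.35 CPM in training hearts (median 0.964). Of 14 clock genes 5 were higher and 3 lower, with a mean log2 difference of 0.13 (adjusted p = 0.524, exact permutation test). This mean joins genes that differed in opposite directions, such as Bmal1 (log2 fold change −1.19) and Per3 (0.80), so that it does not measure a shift of the clock. The part of the clock in the levels of Bdh1 and Oxct1 was not tested.

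Transcripts on the opposite strand overlap exons of several of the 9 genes. Oxct1as shares 558 exonic bases with Oxct1 and was at 6.20 to 8.89 CPM, Gm15743 shares 1031 bases with Bdh1 at 0.965 to 2.41 CPM, and B3gnt8 shares 2386 bases with Bckdha at 2.98 to 4.81 CPM. The counts used are those of the coding strand. Unstranded counts, taken without regard to strand, gave log2 fold changes of −0.61 for Bdh1 (FDR 0.0477) and −0.15 for Oxct1 (FDR 0.0685) in edgeR. The counts of Bckdha moved most of the 9, with 7802 to 9686 per library on its own strand and 1695 to 2482 unstranded. Unstranded counts are therefore not a sum over strands, and the cause of the drop was not tested. The log2 fold change of Bckdha was 0.05 on its own strand and −0.05 unstranded (FDR 0.731), not called in either.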

How the data were processed

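RNA of 10 whole hearts was sequenced as single reads from directional poly-A libraries in 1 pool. The authors deposited raw counts per gene from STAR 2.7.10a on GRCm39, not normalized or filtered, and, from RSEM 1.3.3, expected counts, TPM and effective lengths (strand setting not given in the sources used here). Groups came from the labels. Reverse-strand counts, 94.9 to 95.6% of stranded counts, were used, without the lines for multimapping reads (17.9 to 19.2%) and reads on no gene (4.15 to 4.89%). Of 56748 identifiers, 56017 matched GENCODE M39. Pairs of libraries within a group gave 6.16 to 27.4 chi-square per degree of freedom over genes with at least 20 counts, more than counting noise, so each was 1 replicate.

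In R 4.3.3, edgeR 4.0.16 (filterByExpr, TMM, quasi-likelihood F test, the study's FDR of 0.1) was fitted to all genes; DESeq2 1.42.0 was an alternative. Expected counts were rounded. Marker scores (mean centred log2 CPM, prior count 2) were compared over all 252 assignments of hearts, with a smallest p of 0.00794. Steps were tested on simulated data. The members and lists were chosen with earlier results of these data known. Named were all 9 genes and, of the others, those past the FDR, the 5 highest by TPM in each list, Dld and Klf15; 1 gene that this rule selects is not reported here. Alternatives were other scalings, filters, counts and thresholds, no mitochondrial DNA genes, a replicate block, score covariates and each heart left out.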

Additional observations from a re-analysis of the deposited data

Results flagged for a closer look

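In 4 of 84 groups of 5 hearts, 1 heart stood far from the other 4 by Dixon's test (critical ratio 0.71), and chance gives about 1 in 20. The BCKDH kinase gene Bckdk was at 98.5 CPM in training heart 4, whereas the other training hearts were at 88.3 to 89.7 CPM. The transporter gene Slc7a8 was at 8.88 CPM in sedentary heart 5, compared to 7.87 to 8.08 CPM in the others, so the heart farthest out lay on the side away from the training group. In training heart 1, Mccc2, a subunit of methylcrotonyl-CoA carboxylase in the leucine branch, was at 57.9 CPM (others 49.4 to 51.2 CPM). In the same heart Mcee, the methylmalonyl-CoA epimerase that valine and isoleucine breakdown share, was at 44.2 CPM (others 32.9 to 35.8 CPM). Without that heart, Mcee passed the threshold with a log2 fold change of −0.16 (FDR 0.0576 from edgeR, from 0.0576 to 0.919 over its settings), compared to −0.09 (FDR 0.515) with it.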

How the results depend on the processing

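Both Bdh1 and Oxct1 were called with DESeq2's Wald test, DESeq2 size factors, either other filter, expected counts, unstranded counts and an FDR of 0.05. The same held without mitochondrial DNA genes, and with the adipocyte or clock score as a covariate. The clock score averages genes that differed in opposite directions. With the atrial score, or the cardiomyocyte score (chosen after seeing the data), 0 of the 9 genes and 0 of the 33 others were called, in place of 2 and 4. Leaving out 1 heart gave 0 to 2 of the 9 (0 without training heart 3, 1 without training heart 4 or sedentary heart 3) and 3 to 5 of the others. With library totals alone the 2 calls were Bdh1, lower, and Ppm1k, higher, and Mccc1 was called higher (0.17, FDR 0.0501, from 0.0501 to 0.391 over its settings). Klf15 passed with the clock score (−0.26, FDR 0.0274, from 0.0274 to 0.989). Slc16a7, Bsg and Slc7a8 were called without any 1 heart. Leaving out 1 heart, the cardiomyocyte score difference ranged from −0.16 to −0.11 and the atrial one from 0.47 to 0.78, and both passed an adjusted p of 0.1 without sedentary heart 1 (0.0714). No called direction reversed, and 74 of 1008 gene estimates changed sign, none of them called.

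Over all genes 1084 were called, but 505 at an FDR of 0.05, 581 with the adipocyte score, 89 with the atrial and 73 with the cardiomyocyte score, and 512 to 1490 without 1 heart; the cause was not tested. With mouse numbers as a replicate block, 2 of the 9 and 4 of the others were called, as without it. The labels state no pairing of hearts by number. Same-numbered hearts correlated at −0.10 to 0.16, and 1 of 5 training hearts matched its own number best. With 5 hearts per group this check cannot exclude a pairing.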
